A study of Mus musculus with 8 samples.

Results

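The inner root sheath and companion layer keratins are 9 genes whose products, or whose human counterparts' products, build the filaments of the sheath that moulds a growing hair. They are the type I genes Krt25, Krt26, Krt27 and Krt28 and the type II genes Krt71, Krt72, Krt73, Krt74 and Krt75. Members were the probes whose RefSeq accession maps to one of these symbols, with the probe of highest mean kept for each gene. This gave 10 probes out of 55681 for mouse transcripts, and 9 genes out of 25352 tested. All 9 were well above background on 8 of 8 arrays, so no member passed the filter on dim probes through one group only. The tissue was the whisker follicle, and every mouse was a female ApcMin/+ animal, heterozygous for the Min mutation that truncates Apc, vehicle mice included. E7386, an oral compound described as blocking the interaction of beta-catenin with its coactivator CBP, was dosed at 30 mg/kg, 2 times daily, over 4 cycles of 5 dosing days and 2 days off, starting at an age of 8 weeks. The E7386 group and the vehicle group have 4 samples each, 1 sample per 1-colour array. Follicles were taken 6 h after the last dose. The vehicle schedule is not described separately in the labels. The labels do not say whether samples came from separate mice, so p-values measure the spread between these samples, which may be technical. All arrays lie on 1 slide, E7386 in row 2 and vehicle in row 1, so array row and treatment cannot be told apart. Where a level differs in such bulk tissue, fewer cells of a type and less RNA per cell cannot be told apart either.

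Hair keratins assemble as pairs of a type I and a type II chain, and the inner root sheath hardens before the shaft does and is shed near the skin surface. In human follicles, Krt25, Krt27, Krt28 and Krt71 are found in all layers of the inner root sheath, which from outside in are the Henle layer, the Huxley layer and the cuticle. The human genes for Krt26, Krt72 and Krt73 are restricted to the sheath cuticle, and human KRT74 to the Huxley layer. Krt75 is known from the companion layer, the flat cell sheet between inner and outer root sheath. Whether its signal in these bulk follicles comes from that layer alone was not tested. In mice, dominant alleles of Krt71 and Krt25 give curly or wavy coats. RefSeq lists mouse Krt74 as a transcribed pseudogene, so the Huxley layer label of this gene rests on human data alone.

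The genes lie in 2 clusters, Krt25 to Krt28 on chromosome 11 and Krt71 to Krt75 on chromosome 15. Krt25, Krt26, Krt27 and Krt28 follow each other with 1 long non-coding RNA between Krt25 and Krt26. Krt71, Krt74, Krt72 and Krt73 are direct neighbours, while Krt75 lies apart from them, beyond Krt5, Krt6a and Krt6b. The RefSeq promoter table (GRCm38.p6) holds 8 of the 9 genes, all but Krt74. The stretch from 50 bases before to 20 bases after each start is printed here as a description, with any TATAAA on the gene's strand in capitals. All 8 genes are on the minus strand, and sequences run 5′ to 3′ along the gene.
Krt25, chr11:99322932-99323001: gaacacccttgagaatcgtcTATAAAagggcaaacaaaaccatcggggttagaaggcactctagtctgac
Krt26, chr11:99337946-99338015: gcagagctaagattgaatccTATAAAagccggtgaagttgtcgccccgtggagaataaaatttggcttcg
Krt27, chr11:99351099-99351168: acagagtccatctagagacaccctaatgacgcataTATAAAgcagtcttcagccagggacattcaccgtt
Krt28, chr11:99374884-99374953: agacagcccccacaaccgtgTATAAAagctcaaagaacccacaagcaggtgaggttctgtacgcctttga
Krt71, chr15:101743078-101743147: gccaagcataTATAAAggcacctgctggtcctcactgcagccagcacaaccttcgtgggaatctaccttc
Krt72, chr15:101786501-101786570: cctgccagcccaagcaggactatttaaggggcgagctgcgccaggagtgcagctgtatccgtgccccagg
Krt73, chr15:101802341-101802410: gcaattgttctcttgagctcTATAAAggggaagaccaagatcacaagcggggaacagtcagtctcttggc
Krt75, chr15:101573885-101573954: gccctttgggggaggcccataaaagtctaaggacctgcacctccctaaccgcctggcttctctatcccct
TATAAA began 30 bases before the start in Krt25, Krt26, Krt28 and Krt73, 40 before in Krt71 and 15 before in Krt27. Searched on both strands over the full 300 bases, it was present in 7 of 8 members and in 13.6% of all 32851 promoters. In Krt72 the match was on the opposite strand, 203 bases before the start, and in Krt75 there was none.

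AGATAA, a core recognised by GATA factors such as Gata3, a regulator of the inner root sheath lineage, was present in 4 of 8 member promoters and in 11.2% of all promoters, searched on both strands. The 4 matches are shown with 20 bases on either side, the core in capitals, again along the minus strand.
Krt25, chr11:99323120-99323165: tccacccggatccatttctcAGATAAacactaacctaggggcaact
Krt27, chr11:99351276-99351321: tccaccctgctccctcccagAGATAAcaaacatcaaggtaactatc
Krt71, chr15:101743297-101743342: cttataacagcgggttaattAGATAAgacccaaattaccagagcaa
Krt73, chr15:101802517-101802562: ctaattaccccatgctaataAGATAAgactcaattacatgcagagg
These 4 genes are sheath genes of both keratin types, and the windows of Krt26, Krt28, Krt72 and Krt75 hold no match. The TCF/LEF cores CTTTGA and CTTTGT, through which beta-catenin acts, were present on either strand in 2 of 8 members, Krt25 and Krt28, and in 31.2% of all promoters. The longest run of letters shared by any of the 28 pairs of member promoters was ttgcaagcccagca, 14 bases, in Krt71 and Krt73. Letters in these windows are a description of sequence and say nothing of which factors bind.

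Across the 9 genes, 0 passed the test over all genes (limma, Benjamini-Hochberg adjusted p under 0.05), where 1.12% of all tested genes did. At an unadjusted p under 0.05 the count was 1 of 9, against 15.2% of all genes. The groups of arrays overlapped in all 9, whereas they did not overlap in 10.5% of all genes. The median difference, E7386 minus vehicle, was -0.028 on the log2 scale for the 9 keratins and 0.0088 for all 25352 genes. Means were higher with E7386 in 3 keratins and lower in 6. Values below are log2 of the processed signal minus the 75th percentile of the array, so 1 unit is a doubling relative to the array, and values of different probes are not set against each other. Cross-hybridisation between keratins of similar sequence was not analysed here.

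**Figure D1:**
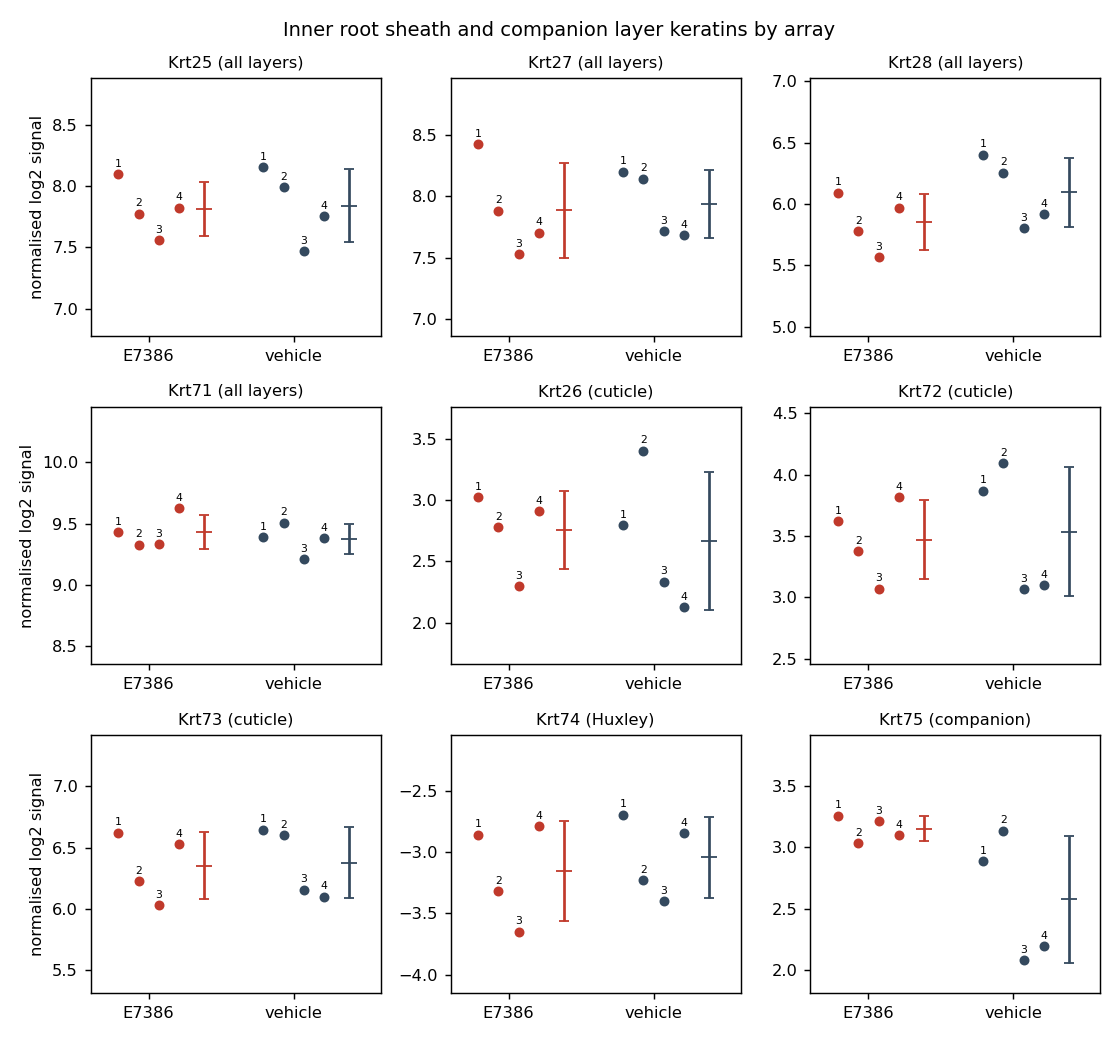
Normalised log2 signal of each keratin on each array (points, with replicate numbers), E7386 left and vehicle right, with mean and SD (bars, n = 4 each) and the layer the human gene is known from in brackets; every panel spans the same log2 range. The groups overlap in all 9 panels, and Krt75 has 4 close E7386 values from 3.03 to 3.26 beside 4 vehicle values spread from 2.08 to 3.14.

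Krt71, the type II keratin of all sheath layers, hardly varied. It had values of 9.43, 9.33, 9.33 and 9.62 on the E7386 arrays, against 9.39, 9.51, 9.21 and 9.38 on the vehicle arrays. All 8 values lay within 0.41 of each other, the narrowest range of the 9 genes, and no spot was marked as saturated. Processed signals before scaling were 284511 to 382692, and whether the signal is linear at that level was not tested. The difference was 0.054 (SE 0.098, adjusted p = 0.853), with a 95% interval from -0.17 to 0.28, or 0.888-fold to 1.21-fold. Its sign turned with array medians (-0.023), quantile normalization (-0.17) and the authors' processed values (-0.17), none of them past the test.

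Krt25, a type I partner in the same layers, had 8.10, 7.77, 7.56 and 7.82 with E7386, against 8.16, 7.99, 7.47 and 7.75 with vehicle. Its lowest value was on vehicle replicate 3 and its highest on vehicle replicate 1, so the vehicle arrays enclosed all the E7386 values. The difference was -0.028 (SE 0.17, adjusted p = 0.964), with a 95% interval from -0.42 to 0.36. Krt27, the next type I gene of the cluster, had 8.43, 7.88, 7.53 and 7.71 with E7386, against 8.20, 8.14, 7.72 and 7.69 with vehicle. Here the E7386 arrays enclosed the vehicle arrays, with E7386 replicate 1 highest and E7386 replicate 3 lowest. The difference was -0.050 (SE 0.21, adjusted p = 0.948).

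Krt28, the last type I gene of the cluster, had the largest negative difference of the 9, which did not pass the test. It had 6.09, 5.78, 5.57 and 5.97 with E7386, against 6.40, 6.26, 5.80 and 5.92 with vehicle. The 2 highest values were those of vehicle replicates 1 and 2, and the other 6 arrays were intermingled. The difference was -0.24 (SE 0.17, adjusted p = 0.544), with a 95% interval from -0.62 to 0.14, and the other Krt28 probe differed by -0.14. Without vehicle replicates 3 and 4, an alternative chosen after seeing the data, it was -0.48 (adjusted p = 0.208), and leaving out only vehicle replicate 1 gave -0.14.

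None of the 3 sheath cuticle genes passed the test. Over the 8 arrays Krt26 spanned 1.28 and Krt72 1.02 on the log2 scale, and both had the larger SD among vehicle samples. Krt26, a type I keratin, had 3.03, 2.78, 2.30 and 2.91 with E7386, against 2.80, 3.40, 2.34 and 2.13 with vehicle. Both its highest and its lowest value were on vehicle arrays. The SD was 0.32 with E7386 and 0.57 with vehicle (n = 4 each), and the difference of the means was 0.089 (SE 0.29, adjusted p = 0.925).

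Krt72, a type II keratin of the cuticle, had 3.62, 3.37, 3.07 and 3.82 with E7386, against 3.87, 4.09, 3.07 and 3.10 with vehicle. Vehicle replicates 3 and 4 stood at the level of E7386 replicate 3, and vehicle replicates 1 and 2 were the 2 highest. Its difference was -0.062 (SE 0.27, adjusted p = 0.949). Krt73, the other type II gene of the cuticle, varied less, with 6.62, 6.23, 6.03 and 6.53 with E7386, against 6.65, 6.60, 6.16 and 6.10 with vehicle. The groups cover almost the same range, and the difference was -0.025 (SE 0.18, adjusted p = 0.970). With intervals from -0.57 to 0.75 for Krt26, -0.69 to 0.56 for Krt72 and -0.44 to 0.39 for Krt73, changes of the cuticle keratins inside those bounds cannot be told from none with 4 arrays per group.

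Krt74, the transcribed pseudogene, was dim but measurable. It had -2.86, -3.32, -3.65 and -2.79 with E7386, against -2.70, -3.23, -3.40 and -2.85 with vehicle. Processed signals before scaling were 35.1 to 87.8 over the 8 arrays, and the spot was well above background on each of them. The difference was -0.11 (SE 0.23, adjusted p = 0.876), with E7386 replicate 3 the lowest array and vehicle replicate 1 the highest.

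Krt75, labelled here as the companion layer keratin, had the largest difference of the 9 genes and the only unadjusted p under 0.05, but did not pass the test over all genes. It had 3.26, 3.03, 3.21 and 3.10 with E7386, against 2.89, 3.14, 2.08 and 2.20 with vehicle. The E7386 values lay close together, vehicle replicate 2 lay among them, vehicle replicate 1 just below, and vehicle replicates 3 and 4 far below. The mean was 3.15 ± 0.10 with E7386 and 2.57 ± 0.52 with vehicle (SD, n = 4 each). The difference was 0.58 (SE 0.23, unadjusted p = 0.0392, adjusted p = 0.298), a ratio of 1.49 with a 95% interval from 1.03 to 2.16 that is not adjusted for the number of genes. Without vehicle replicates 3 and 4 it was 0.14 (adjusted p = 0.533), also chosen after seeing the data. When single arrays were left out it ran from 0.41 (without vehicle replicate 3) to 0.76 (without vehicle replicate 2).

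**Figure D2:**
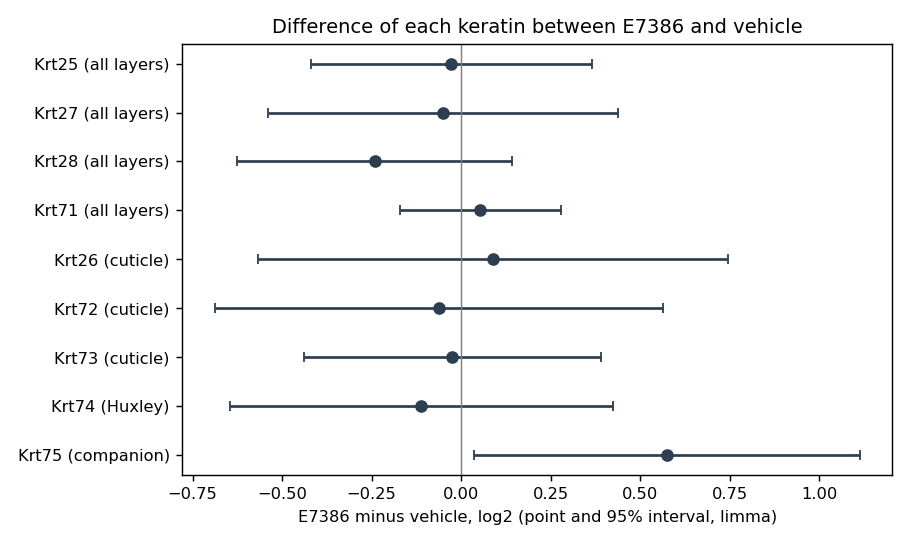
Difference of each keratin, E7386 minus vehicle on the log2 scale (points), with the 95% interval from limma (bars, not adjusted for the number of genes); the layer known from human follicles is in brackets. Intervals of 8 genes include 0, and that of Krt75, from 0.036 to 1.11, does not, with an adjusted p of 0.298.

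Genes with different layer labels were compared through differences between probes on the same array, which do not depend on how an array is scaled to its 75th percentile. In 5 pairs, a gene labelled with 1 layer was set against a gene of all sheath layers and of the same keratin type. Treatments were compared on this difference (exact permutation, two-sided). The smallest p that 4 against 4 arrays allow is 0.0286, and p-values were adjusted over the 5 pairs. A single pair at that smallest p could not pass 0.05 after this adjustment. A pair that did not pass is therefore no evidence that the layers changed alike. Krt75 minus Krt71 was higher by 0.52 with E7386 (SE 0.21, exact permutation p = 0.0857, adjusted p = 0.429), which did not pass. Its 95% interval from limma, not adjusted over the 5 pairs, was 0.049 to 0.99. That interval lay wholly above no difference, whereas the exact permutation test did not pass, so the methods differ for this pair. Relative to its mean over 8 arrays, Krt75 minus Krt71 was 0.37, 0.24, 0.42 and 0.015 with E7386, against 0.033, 0.17, -0.59 and -0.65 with vehicle. Here too vehicle replicates 3 and 4 stood apart, and without them the difference between treatments was 0.16.

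Among the sheath keratins, no pair of genes passed the test either, with the same limit on what a single pair could reach. Krt72 minus Krt71 differed by -0.12 (95% interval from limma -0.62 to 0.38, exact permutation p = 0.629) and Krt73 minus Krt71 by -0.078 (-0.41 to 0.25, exact permutation p = 0.6). Krt74 minus Krt71 differed by -0.17 (-0.62 to 0.29, exact permutation p = 0.486), and Krt26 minus Krt25 by 0.12 (-0.36 to 0.60, exact permutation p = 0.629). The adjusted p of each of these 4 pairs was 0.629.

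**Figure D3:**
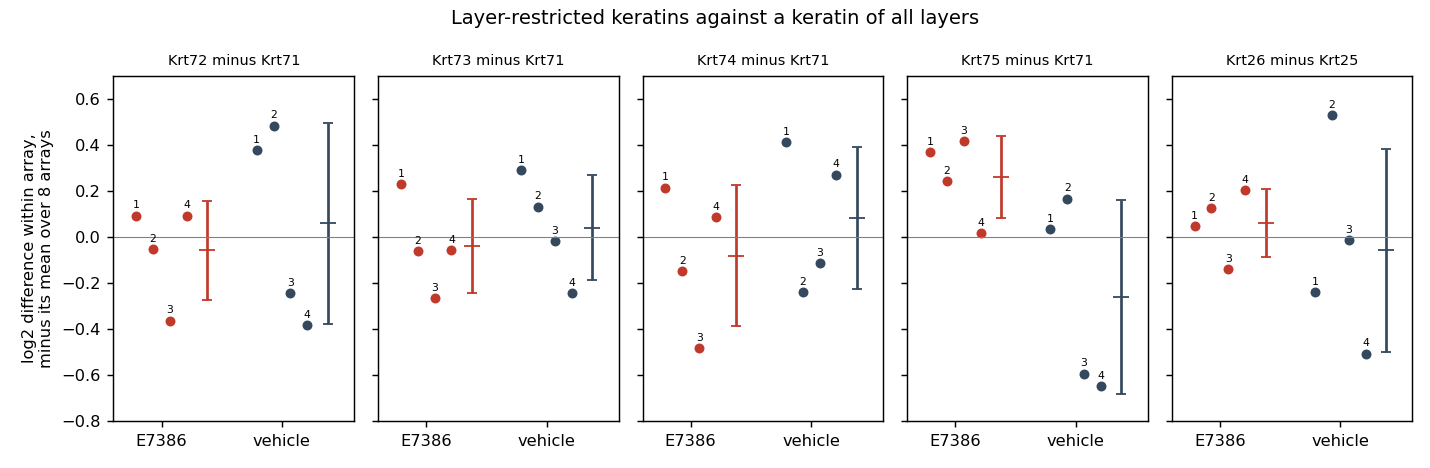
Within-array log2 difference of each pair of keratins, minus its mean over the 8 arrays (points with replicate numbers, E7386 left and vehicle right; bars, mean and SD, n = 4 each). In Krt75 minus Krt71 the E7386 values lie from 0.015 to 0.42 and vehicle replicates 3 and 4 at -0.59 and -0.65; the groups overlap in all 5 pairs.

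Most sheath keratins shared a pattern of high and low arrays within both groups. Vehicle replicates 1 and 2 were the higher 2 of the 4 vehicle arrays in 8 of 9 genes, the exception being Krt74. In Krt71 vehicle replicate 1 was barely above vehicle replicate 4 (9.39 against 9.38). The share of all genes with this order was not counted. It is not particular to these keratins, since Tchh and the summed hair shaft keratins and melanocyte markers had it too. The summed skeletal muscle and epidermal markers did not. The lowest of the 8 values was on E7386 replicate 3 in 4 genes and on vehicle replicate 3 in 4. After the group means were removed, Pearson's r over the 8 arrays was 0.27 to 0.97 (median 0.80) among the 21 pairs of sheath keratins other than Krt71. For Krt71, whose values varied least, r with the other 8 keratins was 0.25 to 0.79 (median 0.61), lowest with Krt27. Spearman's rho was 0.38 to 1 among the 21 pairs without Krt71 and 0.29 to 0.81 for Krt71, and r without the 2 arrays farthest from the median of the first gene was 0.042 to 0.97 among those 21 pairs and 0.32 to 0.73 for Krt71. Krt28 and Krt73, on different chromosomes and of opposite keratin types, had the highest r, 0.97 (rho 0.93, exact permutation p = 0.00694 within groups, adjusted p = 0.0833). Krt25 and Krt28 followed at 0.96, while Krt74 and Krt75 had the lowest of all pairs, 0.13. None of the 36 pairs passed adjustment, by r or by rho. With the 576 arrangements within groups that 4 arrays each allow, a single pair could not have passed it alone. All members share the RNA sample and the scaling of an array, and these correlations describe that shared variation.

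Krt75 was not low on E7386 replicate 3, where the sheath keratins were low. On that array the 8 sheath genes lay 0.068 to 0.55 below their own mean over the 8 arrays, while Krt75 lay 0.35 above its mean. Group means were not removed here, and Krt75 lay above its mean on every E7386 array, by 0.17 to 0.40. Its value on E7386 replicate 3, 3.21, was near the E7386 mean of 3.15. On vehicle replicates 3 and 4 Krt75 was 0.78 and 0.67 below its mean, the lowest values of the 9 keratins in the plot of array deviations.

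**Figure D4:**
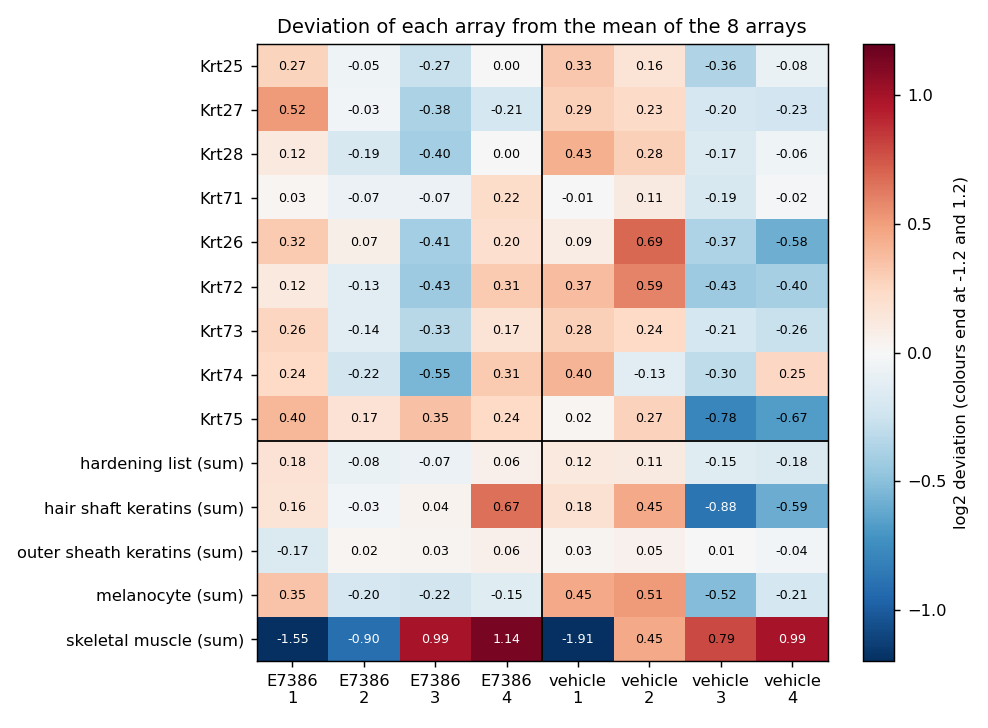
Log2 deviation of each array (columns, E7386 then vehicle) from the mean of the 8 arrays, for the 9 keratins and for the log2 of summed signal of 5 marker lists (rows below the line); red is above the mean, blue below. Vehicle replicates 3 and 4 are low for Krt75 (-0.78 and -0.67) and for the hair shaft keratins (-0.88 and -0.59), and skeletal muscle is low on E7386 replicates 1 and 2 and vehicle replicate 1.

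Genes listed as hair shaft keratins, the shaft being the fibre inside the sheath, were in sum lowest on the same 2 vehicle arrays. Whether each of them is a keratin of the whisker shaft was not tested. Their summed signal over 13 measured genes of 15 listed, in multiples of the 75th percentile, was 3110, 2724, 2862 and 4410 with E7386, against 3156, 3806, 1510 and 1843 with vehicle. None of the 13 passed the test, 1 had an unadjusted p under 0.05, 11 had higher means with E7386, and their median difference was 0.44. That 1 gene was Krt84, a type II keratin of the list, with 2.10, 5.49, 6.12 and 5.99 with E7386, against 2.57, 2.59, 0.33 and 0.87 with vehicle. E7386 replicate 1 lay among the vehicle arrays and the other 3 far above them, a difference of 3.34 (SE 0.96, adjusted p = 0.162). The next 3 by p were Krt36 (0.72, adjusted p = 0.397), Krt86 (0.38, adjusted p = 0.469) and Krt34 (0.58, adjusted p = 0.551), each lowest on vehicle replicates 3 and 4. Melanocyte markers, all 5 measured, summed to 69.8, 47.7, 47.1 and 49.6 with E7386, against 75.2, 78.2, 38.2 and 47.5 with vehicle, again lowest on vehicle replicate 3. Skeletal muscle markers, all 13 measured, ranged from 200.5 to 1294 with E7386 and from 156.2 to 1164 with vehicle, with none past the test. Epidermal markers summed to 271.5 to 337.5 with E7386 and 213.1 to 375.4 with vehicle, with no gene past the test. Fat markers summed to 56.2 to 94.9 with E7386 and 40.4 to 88.4 with vehicle, and endothelial and blood markers to 16.2 to 21.1 with E7386 and 15.7 to 18.6 with vehicle, again with no gene past the test. Sebaceous gland markers summed to 13.5 to 17.7 with E7386 and 11.1 to 13.3 with vehicle, ranges that narrowly did not overlap. All 6 had higher means with E7386, and 3 of 6 had an unadjusted p under 0.05 in limma, against 15.2% of all genes. In the test over all genes 1 of 6 passed, where 1.12% of all genes did. It was Dgat2l6, an acyltransferase of lipid synthesis (0.77, adjusted p = 0.0339). Proliferation genes summed to 34.3 to 48.1 with E7386 and 36.2 to 51.3 with vehicle, and 0 of 6 had a higher mean with E7386. Of these 6, 1 passed, against the same 1.12% of all genes, the replication helicase subunit Mcm2 (-0.72, adjusted p = 0.0395). The part of shaft, pigment, gland or muscle content in the values of the 9 keratins was not tested. Leaving out the 3 arrays of low muscle signal, an alternative chosen after seeing the data, left 0 of 9 keratins past the threshold, with Krt75 at 0.68 (adjusted p = 0.434).

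None of the genes that harden, shed and specify the inner root sheath passed the test. Of 14 measured genes, 0 passed in limma and 0 had an unadjusted p under 0.05, 4 had higher means with E7386, and the median difference was -0.048. Their summed signal was 1062 to 1267 with E7386 and 992 to 1216 with vehicle. Tchh, which encodes trichohyalin, the granule protein that is cross-linked to the sheath keratins, had 8.91, 8.50, 8.45 and 8.72 with E7386, against 8.87, 8.84, 8.46 and 8.52 with vehicle. E7386 replicate 1 and vehicle replicates 1 and 2 were its highest arrays, as they were for Krt25, Krt27, Krt28 and Krt73, and the difference was -0.026 (SE 0.14, adjusted p = 0.959). Padi3, a deiminase that modifies trichohyalin, was at -0.12 (SE 0.25), and Tgm3, the transglutaminase that cross-links it, at -0.11 (SE 0.21). Gata3, the transcription factor of the lineage, was at -0.055 (SE 0.10). The 4 genes of the list with the smallest p were Cst6, a protease inhibitor (0.17, adjusted p = 0.378), Klk7, a serine protease of shedding (-0.30, adjusted p = 0.491), Tgm1, another transglutaminase (-0.13, adjusted p = 0.726), and Cdsn, corneodesmosin (0.13, adjusted p = 0.758).

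Among keratins of the outer root sheath and the partners of companion layer keratins, none passed the test. Of 8 measured genes, 0 passed in limma and 0 had an unadjusted p under 0.05, 3 had higher means with E7386, and the median difference was -0.022. Krt16, a stress-inducible type I keratin, was, like Krt75, lowest on vehicle replicates 3 and 4. It had 6.03, 6.44, 6.38 and 6.86 with E7386, against 6.50, 6.53, 5.25 and 5.72 with vehicle, a difference of 0.43 (SE 0.31, adjusted p = 0.568). Krt6a was at -0.11 (adjusted p = 0.695), Krt6b at -0.11 (adjusted p = 0.623) and Krt17 at -0.088 (adjusted p = 0.620), all short of the threshold.

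Among 16108 other named genes, those most like Krt71 over the 8 arrays, after removal of group means, were Cryaa, Dhps, Pgbd5, Kcnh4, Mdfi, Drap1, Rgl3 and Sypl, with Pearson's r from 0.960 to 0.982. Those most like Krt75 were Fhl2, Ywhae, Nap1l4, Phactr1, Psmb3, 2310068J16Rik, Lrig2 and Arl16, with r from 0.974 to 0.991. None of these 16 passed the test between treatments, and the difference of Fhl2, the closest to Krt75, was -0.30 (adjusted p = 0.259). Being the highest of so many values from 8 arrays, these correlations are a description with no test.

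Whole-array measures bear on all of these values. The share of mouse spots well above background was 61.5% to 61.9% on E7386 arrays and 62.2% to 64.7% on vehicle arrays. Over all genes 284 passed the test, 191 higher and 93 lower with E7386, so 67.3% of calls were rises, against 52.3% of the 258 calls when arrays were scaled by their medians. That scaling moved the median difference of all genes by -0.077.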

How the data were processed

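Spot intensities of the 8 arrays were deposited as Agilent Feature Extraction output; the file headers name version 11.5.1.1, the submitters' processing notes 11. Per the labels, 50 ng of total RNA gave the Cy3-labelled cRNA of each array. The authors' deposited value table holds log2 values with the same sorted values in every column, a median of 5.31 and the rank order of the scanner signals (Spearman 1); it is on the log2 scale, not centred per gene, runs in the same direction, and was used as an alternative.

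Spots marked non-uniform (2 to 14 per array) were left out, spots of a probe averaged, and each array's 75th percentile over probes subtracted from log2 of the processed signal. Accessions were matched without versions to RefSeq symbols of GRCm38.p6, which named 27509 of 29150 probes with a RefSeq accession. The brightest probe per gene was kept where well above background on at least 3 of 4 arrays of a group. The test was limma's moderated test (limma 3.58.1, R 4.3.3; functions lmFit and eBayes) over all 8 arrays with no covariate, with Benjamini-Hochberg adjustment over 25352 genes at 0.05. Arrays of a group correlated at 0.985 to 0.994, and their number limits the precision. The fit was tested on simulated data. The keratins and the lists of other genes were chosen with earlier results of these data known. Named genes are the 9 keratins, genes of any list that passed the test, up to 4 genes of smallest p in the first 3 lists, and the 8 genes most like Krt71 and Krt75; Tchh, Padi3, Tgm3 and Gata3 were named for their roles after their values were seen. The array scaling, normalization, background correction, dim-probe filter, probe choice, variance model, array weights, replicate block and each array were varied. The scanner files used here hold no mean signal, so normexp with an offset of 50 was run on median signals, an added alternative.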

Additional observations from a re-analysis of the deposited data

Results flagged for a closer look

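Of 38 groups of 4 arrays examined, 19 sets of values in each treatment group, 2 had an array whose gap to the nearest other array exceeded Dixon's 95% critical share of the group's range; chance gives this in about 1 in 20 such groups, and neither concerns a sheath or companion layer keratin. The summed signal of outer root sheath keratins was 1521 on E7386 replicate 1 against 1742 to 1787 on the other E7386 arrays (gap 0.841 of the range, on the log2 scale). Melanocyte markers summed to 69.8 on E7386 replicate 1 against 47.1 to 49.6 on the other 3 E7386 arrays (gap 0.868 of the range).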

How the results depend on the processing

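No keratin passed the threshold in the main analysis or in any of the 21 alternatives, among them the replicate number as a block and normexp on median signals. Krt75 stayed positive in all 21, from 0.14 to 0.76, and Krt28 negative, from -0.48 to -0.14. Signs that turned belong to differences short of the test, and the cause was not tested. Without vehicle replicates 3 and 4, Krt71 was at -0.022 and Krt26 at -0.34. Omitting the 3 low-muscle arrays put Krt26 at -0.017 and Krt72 at 0.022. These exclusions were chosen after seeing the data. With the authors' processed values Krt72 minus Krt71 was 0.11 and Krt73 minus Krt71 was 0.11, and without vehicle replicates 3 and 4 Krt26 minus Krt25 was -0.086. Krt71 was at -0.023 with array medians and at -0.17 with quantile normalization and with the authors' processed values.

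Leaving out 1 array at a time gave ranges of -0.15 to 0.077 for Krt25, -0.090 to 0.33 for Krt26, -0.23 to 0.068 for Krt27, -0.011 to 0.099 for Krt71, -0.22 to 0.12 for Krt72, -0.12 to 0.083 for Krt73 and -0.23 to 0.054 for Krt74. For pairs the ranges were -0.26 to 0.026 for Krt72 minus Krt71, -0.17 to 0.0054 for Krt73 minus Krt71 and -0.033 to 0.31 for Krt26 minus Krt25; with 3 arrays against 4 no pair can go below an exact permutation p of 0.0571.

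The 284 genes called over the whole array became 153 with no detection filter, 59 with the replicate block, 59 without vehicle replicates 3 and 4, 48 with the 3 low-muscle arrays omitted, and 88 (without E7386 replicate 3) to 240 (without E7386 replicate 1) when 1 array was left out. Under the remaining alternatives the count ran from 258 with array medians to 413 with the changed variance model, with 388 for normexp on median signals. Deviations of same-numbered arrays correlated at 0.49, -0.17, 0.29 and 0.18, and 1 of 4 E7386 arrays correlated best with its own number. In both groups the replicate number is also the column of the array on the slide. Whether the numbers pair the samples cannot be decided from 4 such correlations. With the replicate block Krt75 was at 0.58 (adjusted p = 0.297).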
